A study of Homo sapiens with 12 samples.

Results

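The genes described here are 10 transcriptional outputs of the ERK pathway: the phosphatase genes DUSP5 and DUSP6, the Sprouty genes SPRY2 and SPRY4, the transcription factor genes EGR1, FOSL1 and ETV5, and SPHK1, PHLDA1 and IER3. They were taken by name from the 22395 genes that the platform annotation names on the array, and where a gene had several rows the row with the highest mean was used. All 10 were on the array. RNA came from NCI-H1975, an established line of human lung adenocarcinoma cells with mutant EGFR (L858R/T790M). L858R is an activating change of the kinase domain, and T790M is a change known for resistance to erlotinib, a reversible inhibitor of the EGFR kinase. Quinacrine is an acridine antimalarial, and the study's title names the histone chaperone FACT and nuclear factor kappa B among what it inhibits.

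All 12 arrays carried this 1 cell line and genotype, so nothing here separates an effect of the mutant receptor from one of the line. One array was of untreated cells, for which the labels give no time. Erlotinib at 1 µM was read on 4 arrays (6, 12, 24 and 48 h of exposure), quinacrine at 3 µM on 3 (6, 12 and 24 h), and both together at these doses, called the combination here, on 4 (6, 12, 24 and 48 h). No condition was repeated. Since the labels do not state that separate dishes or passages were used, a p-value here describes only how these arrays scatter, which may be technical. The levels are RMA values on a log2 scale, so a difference of 1 is a doubling, and an array reads the RNA of a whole dish: more expressing cells and more RNA per cell cannot be told apart.

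ERK is the last kinase of the cascade that runs from an activated receptor such as EGFR through RAS, RAF and MEK. Active ERK switches on early genes, partly through serum response factor and its ETS-family partners on DNA and through AP-1. Some of the early products act back on the cascade: dual-specificity phosphatases remove the activating phosphates from ERK, and Sprouty proteins damp signalling between the receptor and RAF. In EGFR-mutant lung cancer cells, falling transcripts of these genes are a common readout of an EGFR inhibitor that works.

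The start regions of 6 of the 10 genes were found in a RefSeq table of promoters, build GRCh38.p14, as windows from 250 bases before to 50 after the start of transcription. DUSP5, IER3, FOSL1 and ETV5 had no entry. The windows were searched on both strands for 6 motifs: the CArG box bound by serum response factor, the kappaB site, an ETS core (CCGGAA), an AP-1 site (TGACTCA or TGAGTCA), a CRE (TGACGTCA) and an EGR site (GCGGGGGCG or GCGTGGGCG). None of these motifs overlapped another in the windows printed. The bases before the start are shown for EGR1, SPRY4 and SPHK1 because these are the genes with an entry that passed a test below; capitals mark the matches. EGR1 lies at chr5:138465229-138465478 on the plus strand, SPRY4 at chr5:142324248-142324497 on the minus strand, and the third of 3 SPHK1 entries, the one with the most matches, at chr17:76385028-76385277 on the plus strand.
EGR1: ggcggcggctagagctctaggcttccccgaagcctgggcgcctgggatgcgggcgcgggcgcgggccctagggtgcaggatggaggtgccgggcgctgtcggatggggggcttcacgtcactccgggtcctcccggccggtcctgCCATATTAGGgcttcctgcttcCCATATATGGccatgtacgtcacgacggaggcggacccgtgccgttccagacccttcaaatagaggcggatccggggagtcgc
SPRY4: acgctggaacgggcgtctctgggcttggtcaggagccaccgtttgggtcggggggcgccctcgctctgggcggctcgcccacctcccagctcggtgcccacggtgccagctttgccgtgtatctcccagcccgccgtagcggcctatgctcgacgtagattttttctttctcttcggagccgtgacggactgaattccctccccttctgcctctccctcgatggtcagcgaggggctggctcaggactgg
SPHK1: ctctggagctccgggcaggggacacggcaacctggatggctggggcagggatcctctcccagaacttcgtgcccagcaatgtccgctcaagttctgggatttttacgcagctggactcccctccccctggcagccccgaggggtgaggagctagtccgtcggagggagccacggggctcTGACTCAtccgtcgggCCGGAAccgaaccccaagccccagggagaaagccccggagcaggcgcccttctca
EGR1 held 2 CArG boxes, CCATATTAGG from base -105 and CCATATATGG from base -83 (counted from the start). A CArG box was in 1.29% of the 35116 promoters of the same length in the table. The SPHK1 stretch held an AP-1 site (TGACTCA, from -71; 4.95% of promoters hold one) and an ETS core (CCGGAA, from -55; 17.2%), and its window held an EGR site past the start (from base 24; 5.77%). The first SPHK1 entry held an AP-1 site and an ETS core, and the second an EGR site. The printed entry was picked from 3 for its matches, while the shares are per single promoter, so they are not a like comparison. SPRY4 and DUSP6 held none of the 6 motifs, PHLDA1 held an ETS core, and 1 of 3 SPRY2 entries held an ETS core and an EGR site. No entry of the 6 genes held a CRE (1.85% of promoters) or a kappaB site (11.3%). A match is a description of the letters, and no binding was measured.

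Of the 10 genes, 6 had a mean of at least 5 over the 12 arrays and were tested among 5820 genes: DUSP5, SPRY4, EGR1, SPHK1, IER3 and FOSL1. DUSP6 (mean 2.88), SPRY2 (4.67), PHLDA1 (4.88) and ETV5 (4.03) fell below that limit and are given as values with no test. The limit was on the mean of all arrays, treated ones included, so a gene low in 1 group could pass through the arrays in which it was high. SPRY4 was such a gene, with a mean of 4.90 in erlotinib, 5.71 in quinacrine and 5.69 in the combination. One array stood apart: the combination array at 6 h had a median of 6.18 over the tested genes and a median correlation of 0.955 with the other arrays. On the other 11 arrays those medians ran from 6.38 to 6.56 and those correlations from 0.968 to 0.981, both lowest in erlotinib at 12 h. On that erlotinib array 1 of the 10 genes read above the untreated array. The part of the array itself in the genes' low readings there was not tested. Of 8 epithelial markers, 5 were at or above 5: CDH1 10.31, CLDN7 9.82, EPCAM 8.54, KRT19 8.29 and KRT7 7.42. KRT18 (4.71), CLDN4 (3.86) and KRT8 (2.81) were below it. The array mean over the list ran from 6.78 to 7.17. The lung lineage factor NKX2-1 was at 6.12, while NAPSA was at 2.87 and the surfactant genes SFTPB, SFTPC and SFTPD at 1.65 to 1.76. None of the 5 fibroblast and none of the 5 endothelial markers measured reached 5. Of 7 leukocyte markers, CD68, CD74, HLA-DRA and CSF1R did, and the pan-leukocyte gene PTPRC was at 0.89.

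With quinacrine added to erlotinib, 4 of the 6 tested ERK-induced genes passed as higher than with erlotinib alone. Upwards, 1.43% of all tested genes passed. DUSP5, SPRY4, EGR1 and SPHK1 were higher than with erlotinib by 1.66-fold to 2.13-fold in the fit of treatment and time. IER3 had a difference of similar size but a wider spread, and FOSL1 was the tested gene on the other side. SPHK1 showed the largest difference and lay on opposite sides of the untreated array in the erlotinib and combination arrays. Between quinacrine alone and erlotinib 1 of the 6, SPRY4, passed the test, where 0.515% of all tested genes passed upwards. Between the combination and quinacrine alone none did, as for all tested genes (0%). The calls of the first 2 comparisons were lost when most of the treated arrays were left out singly.

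**Figure D1:**
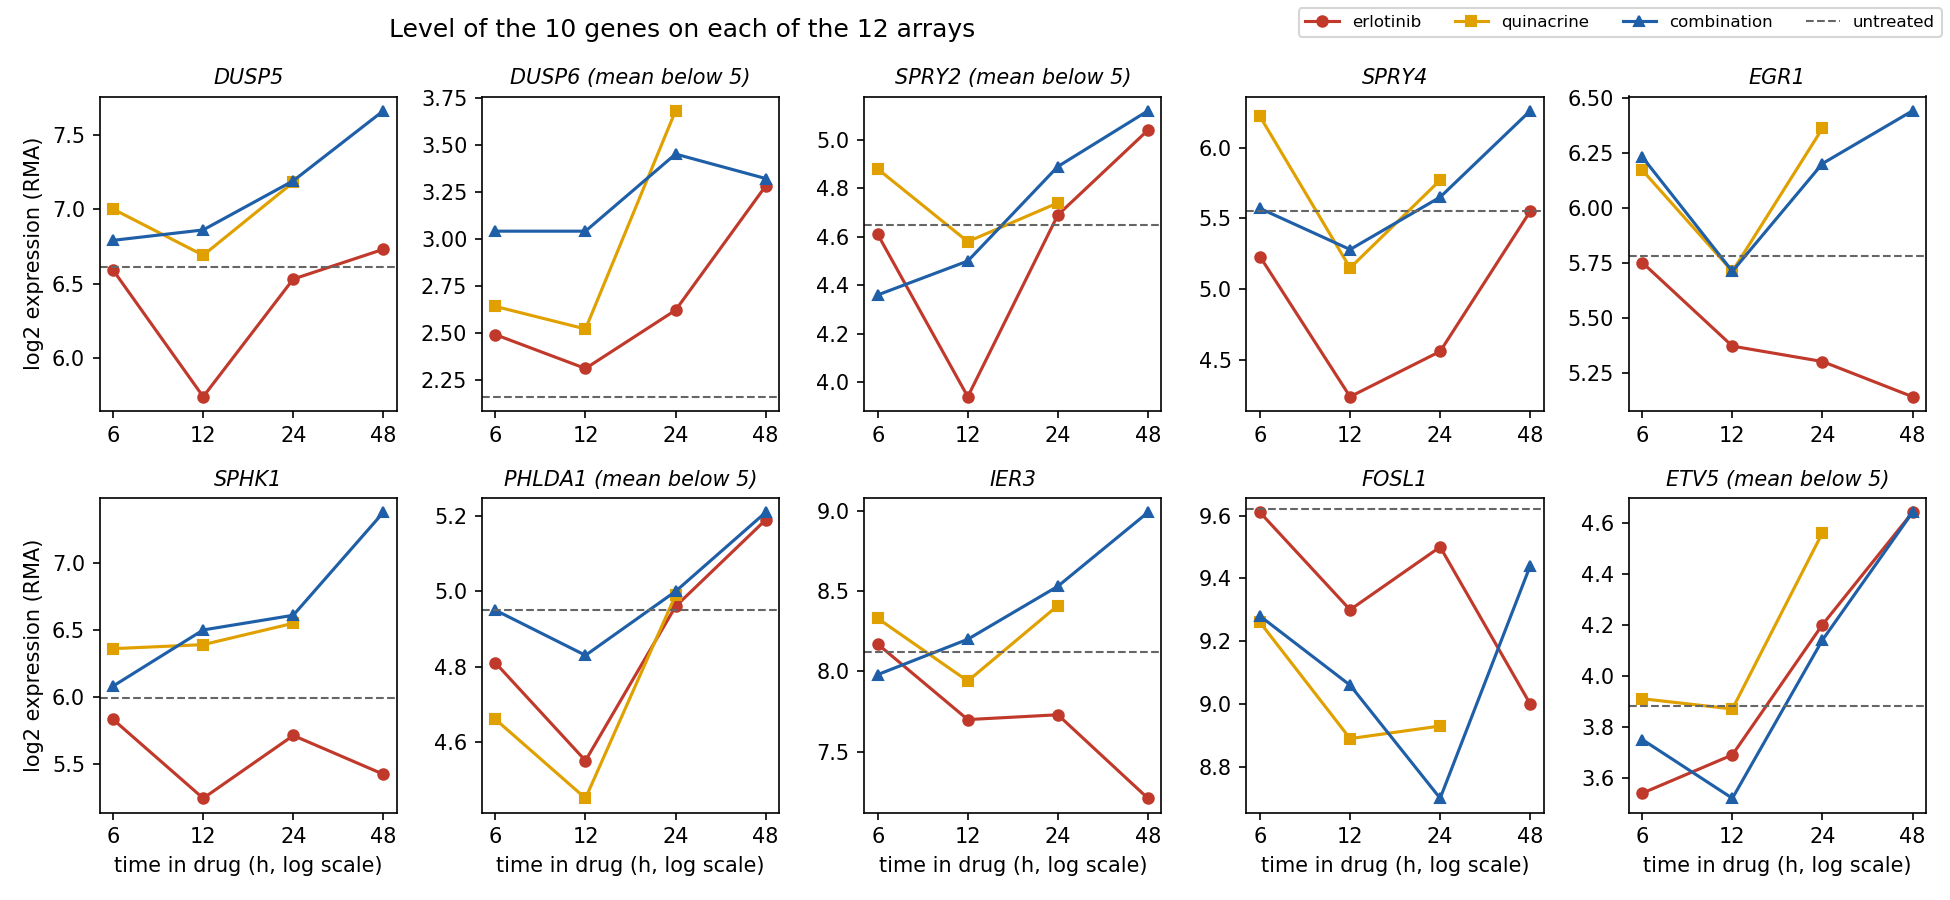
Level of each of the 10 genes (log2 RMA value, vertical axis, scaled per gene) against time in drug (hours, log scale) for erlotinib (red circles), quinacrine (yellow squares) and the combination (blue triangles), with the untreated array as a dashed line; each point is 1 array. The erlotinib points lie lowest for DUSP5, SPRY4, EGR1 and SPHK1 at all times, and FOSL1 runs below its untreated level of 9.62 on all treated arrays.

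Among the negative feedback genes, DUSP5 encodes a nuclear phosphatase that inactivates ERK. Its level was 6.61 on the untreated array, 6.59, 5.74, 6.53 and 6.73 in erlotinib at 6, 12, 24 and 48 h, 7.00, 6.69 and 7.18 in quinacrine at 6, 12 and 24 h, and 6.79, 6.86, 7.19 and 7.66 in the combination at 6, 12, 24 and 48 h. All 4 combination arrays lay above all 4 erlotinib arrays, and the erlotinib array at 12 h was the lowest of all. The combination exceeded erlotinib by 0.73 on the log2 scale (SE 0.14, 95% interval 0.40 to 1.06, limma adjusted p = 0.0349), and was higher at 4 of 4 times.

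SPRY4 encodes a Sprouty inhibitor of receptor tyrosine kinase signalling. It was at 5.55 untreated, at 5.23, 4.24, 4.56 and 5.55 in erlotinib, at 6.22, 5.15 and 5.77 in quinacrine, and at 5.57, 5.28, 5.65 and 6.26 in the combination, each in order of time. The erlotinib readings were lowest at 12 and 24 h and the 48 h array was at the untreated value, so the erlotinib and combination groups overlapped although the combination was higher at every matched time. The fitted difference was 0.80 (SE 0.14, 95% interval 0.47 to 1.12, limma adjusted p = 0.0319).

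The paralogues DUSP6 and SPRY2 were too low to be tested. DUSP6, the cytoplasmic ERK phosphatase, read 2.16 untreated, 2.49, 2.31, 2.62 and 3.28 in erlotinib, 2.64, 2.52 and 3.68 in quinacrine, and 3.04, 3.04, 3.45 and 3.32 in the combination. Its untreated array was the lowest of the 12, and the combination was above erlotinib by 0.55, 0.73 and 0.83 at 6, 12 and 24 h but by 0.04 at 48 h. SPRY2, a second Sprouty gene, read 4.65 untreated, 4.61, 3.94, 4.69 and 5.04 in erlotinib, 4.88, 4.58 and 4.74 in quinacrine, and 4.36, 4.50, 4.89 and 5.12 in the combination. The 3 treated groups of SPRY2 overlapped, and its combination minus erlotinib difference was 0.15.

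Of the transcription factor genes, EGR1 encodes a zinc-finger protein made within minutes to hours of ERK activation, and its start region carries the CArG boxes printed above. EGR1 was at 5.78 untreated, and at 5.75, 5.37, 5.30 and 5.14 in erlotinib. It was at 6.17, 5.71 and 6.36 in quinacrine and at 6.23, 5.71, 6.20 and 6.44 in the combination. Each later erlotinib array was lower than the one before, all of them below the untreated array, and the combination and quinacrine arrays dipped at 12 h to the same value. The combination exceeded erlotinib by 0.75 (SE 0.17, 95% interval 0.37 to 1.14, limma adjusted p = 0.0479), with single-time differences from 0.34 at 12 h to 1.30 at 48 h.

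FOSL1 encodes the AP-1 subunit FRA-1. It was at 9.62 untreated, at 9.61, 9.30, 9.50 and 9.00 in erlotinib, at 9.26, 8.89 and 8.93 in quinacrine, and at 9.28, 9.06, 8.70 and 9.44 in the combination. The untreated array was the highest of the 12, and the groups overlapped. The combination was below erlotinib by 0.33, 0.24 and 0.80 at 6, 12 and 24 h and above it by 0.44 at 48 h, and the fitted difference of -0.23 (95% interval -0.63 to 0.16, limma adjusted p = 0.495) did not pass. ETV5, an ETS factor of the PEA3 group, was not tested and read 3.88 untreated, 3.54, 3.69, 4.20 and 4.64 in erlotinib, 3.91, 3.87 and 4.56 in quinacrine, and 3.75, 3.52, 4.14 and 4.64 in the combination. Its readings from 24 h on were higher than those at 6 and 12 h under each treatment, with a combination minus erlotinib difference of -0.01.

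Among the remaining early genes, SPHK1 encodes the kinase that makes sphingosine-1-phosphate. SPHK1 was at 5.99 untreated, at 5.83, 5.24, 5.71 and 5.42 in erlotinib, at 6.36, 6.39 and 6.55 in quinacrine, and at 6.08, 6.50, 6.61 and 7.38 in the combination. Every erlotinib array lay below the untreated array and every quinacrine and combination array above it. The combination exceeded erlotinib by 1.09, which is 2.13-fold (SE 0.23, 95% interval 0.58 to 1.61, limma adjusted p = 0.0397), with single-time differences of 0.25, 1.26, 0.90 and 1.96.

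IER3, an early response gene that is also known as a target of nuclear factor kappa B, was at 8.12 untreated, at 8.17, 7.70, 7.73 and 7.21 in erlotinib, at 8.33, 7.94 and 8.41 in quinacrine, and at 7.98, 8.20, 8.53 and 8.99 in the combination. The combination minus erlotinib difference ran from -0.19 at 6 h to 1.78 at 48 h, with the lowest and the highest of all IER3 readings both at 48 h. Its fitted difference was 0.72 (SE 0.26, 95% interval 0.13 to 1.31), and the limma adjusted p of 0.165 did not pass. IER3 had 10 rows on the array: the 4 identical rows used here, 2 further rows that gave 0.79 and 0.69 for the same difference, and 4 identical rows with a mean of 2.69 that gave 0.26. Rows that share probes or sit on near-identical copies of the region cannot be told apart in these values. PHLDA1, a pleckstrin homology-like domain gene, was not tested. It read 4.95 untreated and between 4.45 and 5.21 on the treated arrays, with a combination minus erlotinib difference of 0.12.

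**Figure D2:**
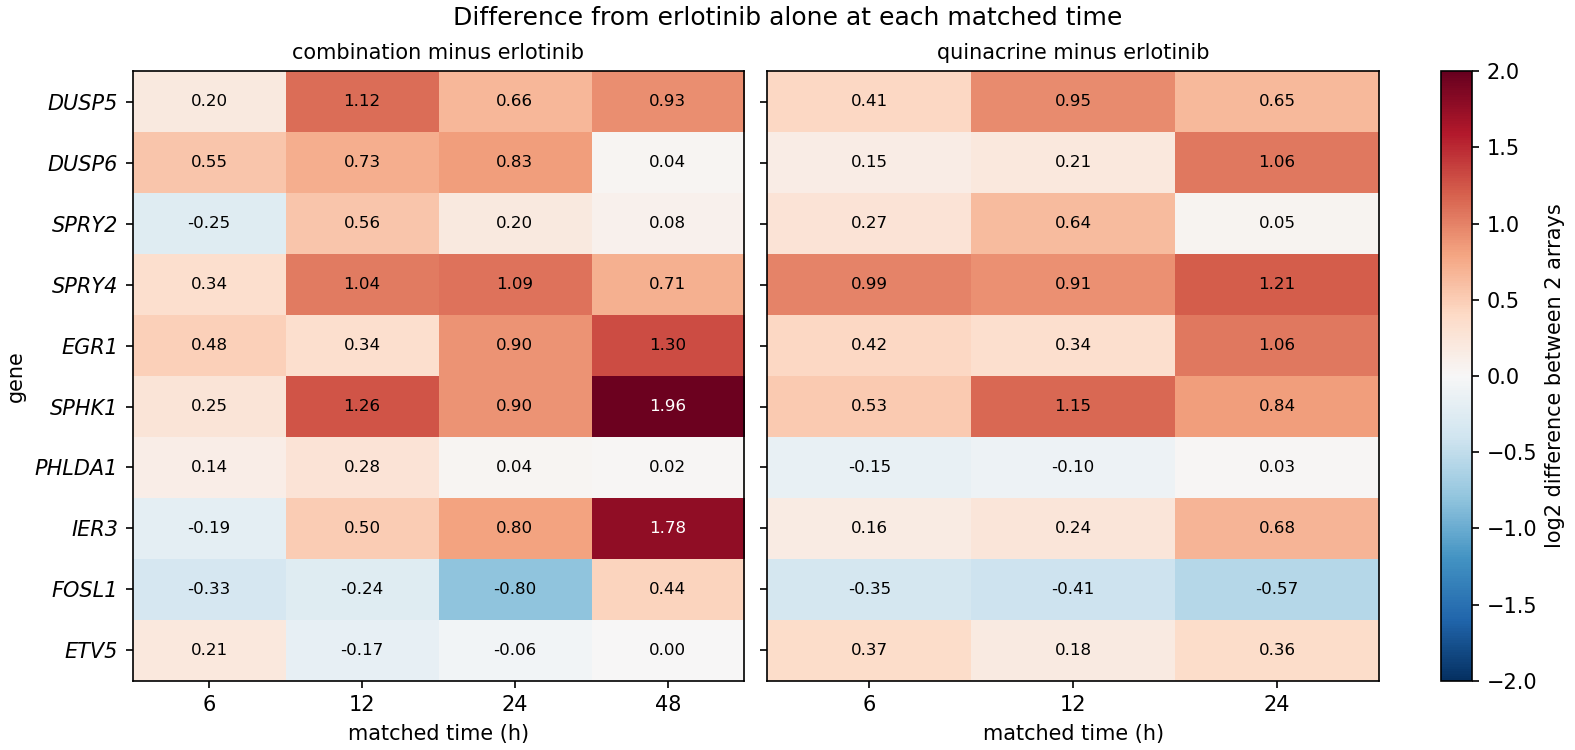
Log2 difference between 2 arrays at the same time for the 10 genes, combination minus erlotinib (left, 6 to 48 h) and quinacrine minus erlotinib (right, 6 to 24 h); red is higher than erlotinib alone and blue lower, and each cell prints its value. The FOSL1 row is blue in 6 of 7 cells, while DUSP5, DUSP6, SPRY4, EGR1 and SPHK1 are above 0 in all 7.

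Set against all genes, 4 of the 6 tested genes passed the test upwards between combination and erlotinib, where 83 of the 5820 tested genes did (1.43%). The genes were chosen as ERK outputs with earlier results of these data in view, so the count is not independent evidence of a direction. Over all tested genes 129 were lower, and centring each array on its median turned that split from 83 higher and 129 lower to 223 and 216. The tested genes' median difference at 6, 12, 24 and 48 h was 0.23, 0.77, 0.85 and 1.12, beside -0.27, 0.14, 0.04 and -0.02 for all tested genes. At 6 h, the time of the array that stood apart, the 5820 tested genes together thus read lower in the combination. Over all rows, tested or not, that array's median was 1.64, beside 1.44 for erlotinib at 6 h. Its interquartile range was narrower, 2.04 beside 2.70. The part of this in the genes' values was not tested. Of the 10 genes, 7, 8, 8 and 9 were higher in the combination at the 4 times. The medians over all 10 were 0.21, 0.53, 0.73 and 0.57. At 48 h the differences of SPRY2, DUSP6 and PHLDA1 were only 0.08, 0.04 and 0.02. The share of all tested genes that were higher at each time was not counted, so these counts are descriptions. The groups did not overlap, combination above erlotinib, for DUSP5 and SPHK1 of the 6 tested genes, and for 4% of all tested genes.

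The calls were close to the threshold and rested on the full set of arrays. All 6 differences kept their sign when any 1 of the 11 treated arrays was left out and in the other 12 settings tried, rescaled arrays included. Over the arrays left out in turn, the ranges were 0.62 to 0.87 for DUSP5, 0.69 to 0.95 for SPRY4, 0.57 to 0.89 for EGR1, 0.80 to 1.31 for SPHK1, 0.37 to 0.97 for IER3 and -0.46 to -0.08 for FOSL1. The 4 calls remained without erlotinib 6 h, and 5 genes passed, IER3 among them, without combination 6 h. None passed without any one of erlotinib 12, 24 or 48 h, any quinacrine array, or combination 12, 24 or 48 h. The residual of this fit is the departure of single arrays from additive effects of treatment and time, since no condition was repeated.

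Quinacrine alone was compared with erlotinib alone to ask whether the difference needs both drugs. SPRY4 was higher with quinacrine by 1.02, which is 2.03-fold (SE 0.16, 95% interval 0.65 to 1.39, limma adjusted p = 0.0328). At 6, 12 and 24 h it was higher by 0.99, 0.91 and 1.21. Against the untreated array SPRY4 differed by 0.16 with quinacrine and by -0.66 with erlotinib, and neither passed. The erlotinib mean of SPRY4 was 4.90, below the limit of 5, so other arrays carried it into the test. Between quinacrine and erlotinib SPRY4 was the 1 of 6 tested genes to pass, where 0.515% of all tested genes passed upwards. The other 5 did not pass. The differences were SPHK1 0.98 (limma adjusted p = 0.0945), DUSP5 0.70 (limma adjusted p = 0.0721), EGR1 0.70 (limma adjusted p = 0.104) and IER3 0.54 (limma adjusted p = 0.383). FOSL1 was lower by 0.33 in the fit, with readings below erlotinib at 3 of 3 times (limma adjusted p = 0.42). Of the genes that were not tested, DUSP6 differed by 0.39, SPRY2 by 0.31, ETV5 by 0.30 and PHLDA1 by -0.09. All quinacrine arrays lay above all erlotinib arrays for SPHK1 alone of the 6, and for 9.33% of all tested genes. Both comparisons share the erlotinib arrays, so their likeness is no separate evidence. The SPRY4 call was lost when any one of erlotinib 12, 24 or 48 h, any quinacrine array, or combination 24 or 48 h was left out. Without erlotinib 6 h or without combination 6 h, DUSP5 and SPHK1 passed as well.

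Erlotinib added to quinacrine made no detectable difference to these genes. In the comparison of the combination with quinacrine alone, 0% of the 5820 genes passed in limma (47 genes at an unadjusted p under 0.05). The differences and their 95% intervals were 0.02 (-0.34 to 0.39) for DUSP5, -0.23 (-0.60 to 0.14) for SPRY4, and 0.06 (-0.37 to 0.48) for EGR1. For SPHK1 the difference was 0.11 (-0.47 to 0.68), for IER3 0.19 (-0.47 to 0.84) and for FOSL1 0.10 (-0.34 to 0.54). The intervals hold changes of up to 0.84 for IER3 and 0.68 for SPHK1, so the treatments are not shown to act alike. Without a test, DUSP6 differed by 0.15, SPRY2 by -0.16, PHLDA1 by 0.21 and ETV5 by -0.31. PHLDA1 was higher in the combination at 3 of 3 times, and ETV5 was lower at 3 of 3.

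**Figure D3:**
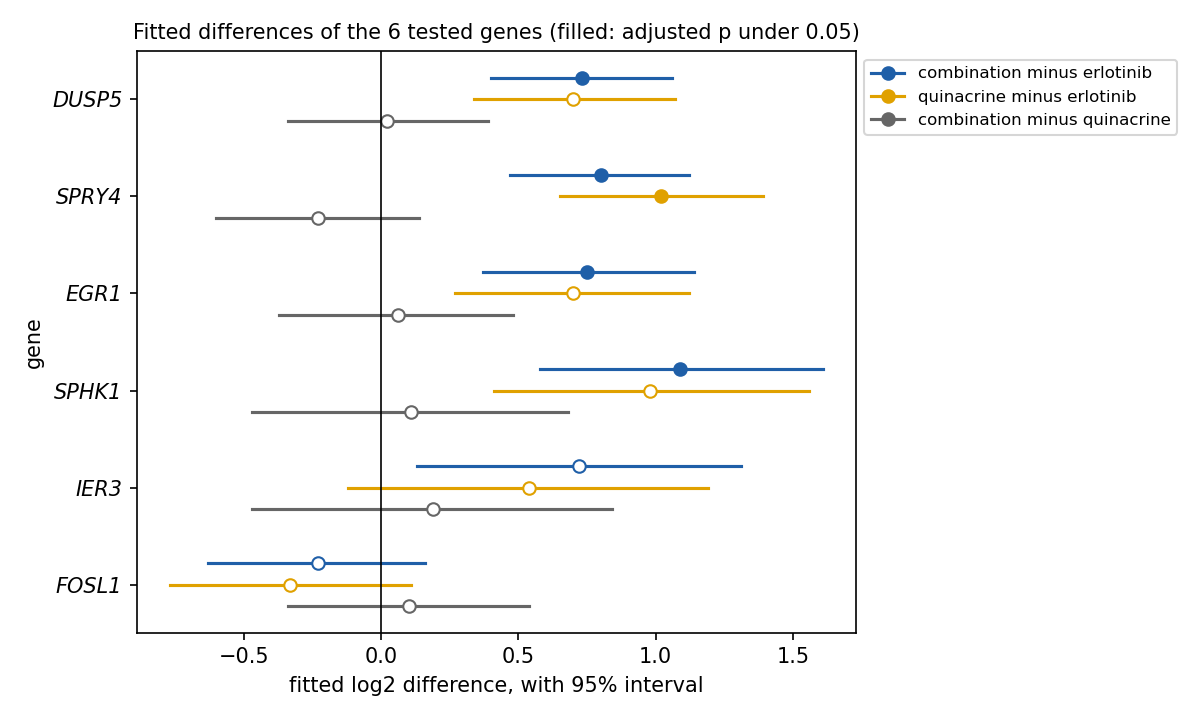
Fitted log2 differences of the 6 tested genes with 95% intervals (limma, treatment and time, 11 treated arrays), for combination minus erlotinib (blue), quinacrine minus erlotinib (yellow) and combination minus quinacrine (grey); filled points passed an adjusted p of 0.05. The grey intervals all include 0, and the blue points of DUSP5, SPRY4, EGR1 and SPHK1 lie between 0.73 and 1.09.

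Against the single untreated array, none of the 6 tested genes passed under any treatment. With erlotinib the fitted differences were all below 0: DUSP5 -0.21, SPRY4 -0.66, EGR1 -0.39, SPHK1 -0.44, IER3 -0.42 and FOSL1 -0.27, each with a limma adjusted p of 0.999. Their 95% intervals were wide, for SPRY4 from -1.76 to 0.45, and 0% of all genes passed in this comparison (144 at an unadjusted p under 0.05). EGR1, SPHK1 and FOSL1 read below the untreated array on 4 of 4 erlotinib arrays. DUSP6, which was too low to be tested, read above it on 4 of 4. The share of all tested genes with every erlotinib array on 1 side of the untreated array was not counted, so these are descriptions.

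With the combination, SPHK1 was 0.65 above the untreated array (95% interval -0.16 to 1.46, limma adjusted p = 0.57) and DUSP5 0.51 above it (limma adjusted p = 0.691), each higher on 4 of 4 arrays. EGR1 differed by 0.37, IER3 by 0.31 and SPRY4 by 0.14. DUSP6, which was not tested, read above the untreated array on 4 of 4 combination arrays (mean difference 1.05) and 3 of 3 quinacrine arrays (0.79). FOSL1 was 0.50 lower in the fit (95% interval -1.12 to 0.12, limma adjusted p = 0.57) and read below the untreated array on all 4. In this comparison 0.0515% of all genes passed. With quinacrine alone the differences were 0.44 for SPHK1, 0.35 for DUSP5, 0.30 for EGR1, 0.16 for SPRY4, 0.11 for IER3 and -0.59 for FOSL1, and 0.0344% of all genes passed. SPHK1 was the 1 tested gene of the 6 with all erlotinib arrays below and all combination arrays above the untreated array, an arrangement found in 0.601% of all tested genes.

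Over time, the combination minus erlotinib difference was higher at 48 h than at 6 h for all 6 tested genes, from 0.25 to 1.96 for SPHK1 and from -0.19 to 1.78 for IER3. The same held for 72.2% of all tested genes, whose median difference was -0.27 at 6 h and -0.02 at 48 h, so the count says little about these 6. With 1 slope for all treated arrays, given per doubling of time, the trend passed for none of the 6 genes, where 2.3% of all genes passed (118 rose and 16 fell, or 126 and 105 after centring each array on its median). DUSP5 had a slope of 0.19 (limma adjusted p = 0.206). Of the 4 tested leukocyte markers, HLA-DRA rose with time (0.38 per doubling, limma adjusted p = 0.0243). The slopes of CD74 (0.19), CSF1R (0.18) and CD68 (-0.01) did not pass. All arrays carried the same established cell line, and the part of HLA-DRA in the genes' values was not tested. The difference between the slopes of the combination and of erlotinib, tested on their 8 arrays, was 0.62 per doubling for IER3 (SE 0.10, 95% interval 0.40 to 0.85), 0.48 for SPHK1 and 0.30 for EGR1. The limma adjusted p was 0.119 for IER3, 0.226 for SPHK1 and 0.387 for EGR1, and no gene of the array passed this test (0%; 770 at an unadjusted p under 0.05; smallest adjusted p 0.0714). For DUSP5, SPRY4 and FOSL1 the slope differences were 0.17, 0.12 and 0.17. The early end of these slopes includes the combination array at 6 h that stood apart. Leaving out each of the 8 arrays in turn, that one among them, gave IER3 values of 0.56 to 0.68.

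Among the other genes of the pathway, 5 passed the test upwards between the combination and erlotinib, where 1.43% of all tested genes did. Of 12 tested immediate early genes, KLF10, a zinc-finger repressor, was higher by 0.81 (limma adjusted p = 0.0242) and JUNB, an AP-1 subunit, by 0.58 (limma adjusted p = 0.035). Of 9 further ERK output genes, UPP1, uridine phosphorylase, was higher by 1.03 (limma adjusted p = 0.0337) and EPHA2, an ephrin receptor, by 0.70 (limma adjusted p = 0.0266). Of 7 genes for serum response factor, ETS factors and their partners, SRF itself was higher by 0.45 (limma adjusted p = 0.0401). SRF encodes the factor that binds the CArG box. None passed among 5 other ERK phosphatase and feedback genes, 4 EGFR ligands and receptors, 11 genes of the RAS to ERK cascade and 4 phosphatases of the stress kinases. The lists' medians were 0.19 for the immediate early genes, 0.38 for the output genes and 0.10 for the other feedback genes. They were 0.19 for serum response factor, ETS factors and their partners, and 0.18 for the stress kinase phosphatases. For the cascade the median was 0.02, and for the ligands and receptors -0.11. Beside these, it was 0.74 for the 6 tested genes described here and -0.03 for all genes. EPHA2 was the 1 gene of these lists to pass between quinacrine and erlotinib (0.74, limma adjusted p = 0.0448), where 0.515% of all tested genes passed upwards. All of these calls remained without erlotinib 6 h or combination 6 h, and KLF10 also without quinacrine 6 h. Each was lost when any other treated array was left out, with values that kept their sign (SRF 0.41 to 0.51, UPP1 0.82 to 1.25).

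**Figure D4:**
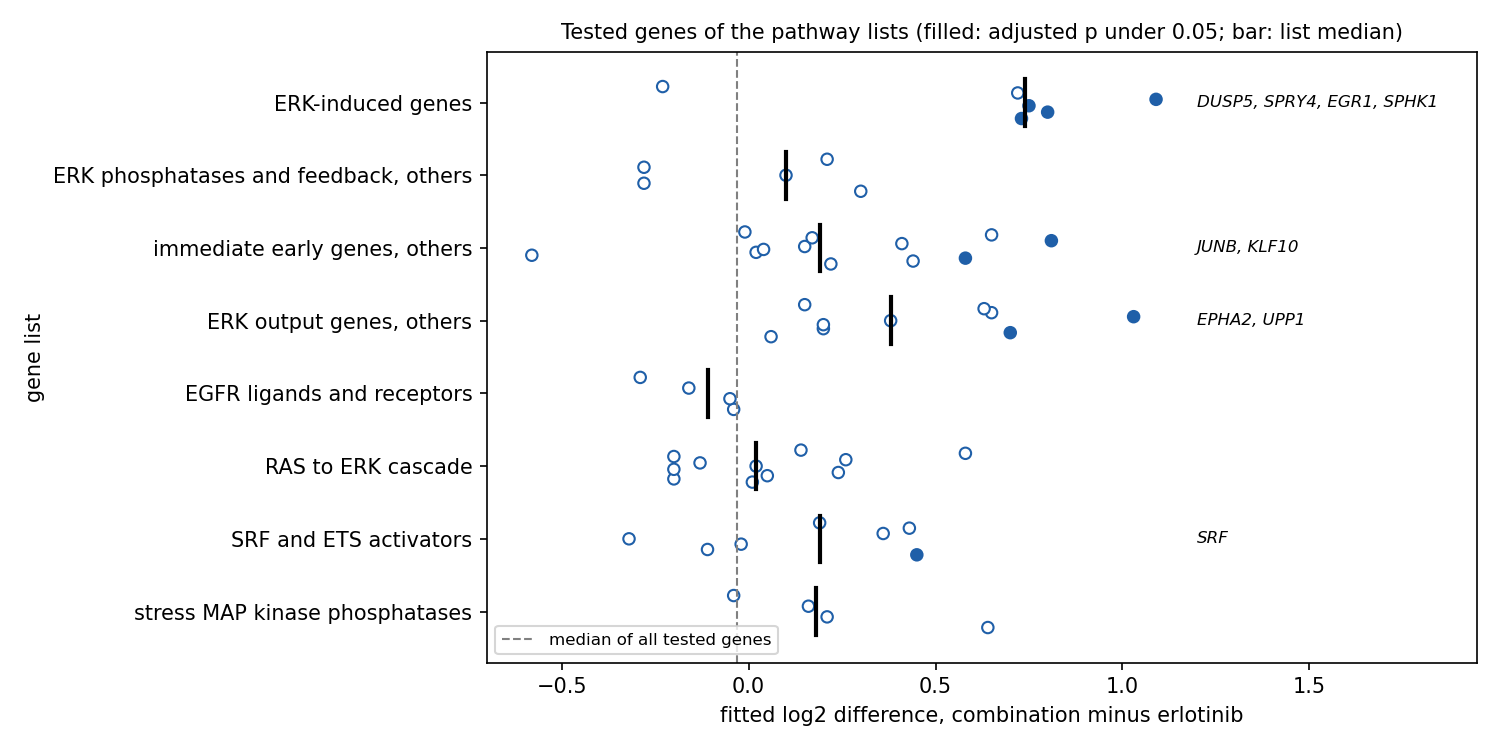
Fitted log2 difference, combination minus erlotinib, of each tested gene (points) in the ERK-induced genes and in 7 other lists of the pathway; filled points passed an adjusted p of 0.05 and are named at the right, bars are list medians and the dashed line is the median of all tested genes (-0.03). The bar of the ERK-induced genes is at 0.74, and EGFR ligands and receptors lie at or below -0.04.

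The members of the group did not move as one. Over the 12 arrays, SPHK1 correlated with DUSP5 (Pearson r 0.89) and IER3 (0.89), EGR1 with IER3 (0.87), and DUSP5 with SPRY4 (0.87). FOSL1 did not follow them: its correlations with DUSP5, SPRY4, EGR1, SPHK1 and IER3 lay between -0.26 and 0.01. ETV5 correlated with SPRY2 at 0.71 and with EGR1 at 0.16. The points share their treatments and arrays, so these values are descriptions. The tested genes whose levels were most like SPHK1 over the 12 arrays were UPP1 (r 0.954) and PPP1R15A (0.946), and those most like EGR1 were LAMB3 (0.921) and TNFAIP3 (0.914). IER3 was also nearest to LAMB3 (0.948), then COL6A1 (0.945). DUSP5 was nearest to DHRS1 (0.960) and C10orf55 (0.953), SPRY4 to AK3 (0.867) and AHR (0.857), and FOSL1 to NCS1 (0.910) and TES (0.884). TNFAIP3 encodes A20, a feedback inhibitor of nuclear factor kappa B. Its levels are printed after they were seen, and a link with the ERK-induced genes was not tested. TNFAIP3 read 7.53 untreated, 7.41, 6.56, 5.53 and 5.76 in erlotinib, 7.79, 7.55 and 8.17 in quinacrine, and 7.53, 7.52, 8.14 and 8.70 in the combination.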

How the data were processed

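RNA of cultured cells was read on 12 Affymetrix Human Gene 2.1 ST arrays, 1 per treatment and time. The authors processed the scans by RMA in Affymetrix Expression Console 1.30, per the submitters' processing notes, and the deposited values are log2 expression with 2 decimals, used as deposited. RMA normalises the arrays to each other, so a shift common to all genes is not visible. Of 53617 rows, 23871 had 1 gene symbol, 1842 several and 27904 none; 22569 were matched to RefSeq by Entrez ID and 90 symbols were updated. All 12 value columns were matched to labelled samples.

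Genes with a mean of at least 5 were tested (5820, or 26% of 22395) with limma 3.58.1 in R 4.3.3, with Benjamini-Hochberg adjustment calling adjusted p-values under 0.05. Erlotinib, quinacrine and the combination entered a joint model of 11 arrays with factors for treatment and time (5 residual degrees of freedom). Comparisons with the untreated array used group means of all 12 arrays (8 degrees of freedom) and assume that the lone array varies like the others. Slopes used log2 of time. The scripts were tested on simulated data. The number of arrays limits the precision. The named genes are the 10 listed, other pathway genes past the threshold, and for each tested gene the 2 most correlated genes; TNFAIP3 levels were printed after their values were seen. The genes and lists were chosen with earlier results of these data known. Alternatives were the filter, rows, scaling, prior variance, array weights, times, groups and leaving out each array.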

Additional observations from a re-analysis of the deposited data

Results flagged for a closer look

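SPHK1 was singled out because its 2 treatments moved opposite ways from the untreated array: all 4 erlotinib arrays lay below it (5.24 to 5.83 against 5.99) and all 4 combination arrays above it (6.08 to 7.38). The fitted difference between the combination and erlotinib was 1.09 on the log2 scale. The difference between the treatments was tested in limma (adjusted p = 0.0397), and neither treatment passed against the untreated array, which is a single array without a time. The same arrangement was found in 35 of 5820 tested genes (0.601%). In the 20 groups of 4 arrays of the 10 genes, Dixon's ratio flagged no array, where chance marks about 1 group in 20. The 4 arrays of a group were read at different times, so the ratio cannot separate an outlying array from a change over time. The groups also share arrays, so the chance share does not hold as for independent groups. No conclusion about single arrays is drawn from this ratio.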

How the results depend on the processing

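Time took the place of a replicate block, because each treatment had 1 array per time and no label numbers replicates. All 6 tested genes kept their direction between combination and erlotinib and between quinacrine and erlotinib in all 23 alternatives run. Between combination and erlotinib, 79 of 138 gene values kept direction and side of the threshold, and 57 were calls that were lost. Between quinacrine and erlotinib, 114 of 138 kept both, and 12 were lost calls. Over all 8 comparisons the number was 928 of 1056. In the other comparisons none of the genes had passed, so no call could be lost there. Arrays carry no depth, and their number limits every test. Array weights did not converge in 4 comparisons, and median centring and cyclic loess moved array medians by -0.08 to 0.30 and by -0.11 to 0.25. Between combination and erlotinib, 4 of the 6 genes passed. With no filter on low means none did (51 genes of the array called), nor with all rows (9), the 6, 12 and 24 h arrays only (34) or only the compared groups (6); 1 passed with no time term and no replicate block (SPHK1), 2 with a mean of at least 4 (DUSP5, SPRY4), and 4 in a setting chosen after seeing the data, without combination 6 h and erlotinib 12 h. Over all genes 212 passed, and 485 with cyclic loess, 439 with median centring and 380 with array weights, which called 5 of the 6 genes. The cause of these changes was not tested. Leaving out 1 array gave 0 to 5 of the genes and 6 to 322 over all genes.

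Between quinacrine and erlotinib, 1 of the genes passed. None passed with no filter (28 over all genes), all rows (3), the 6, 12 and 24 h arrays only (41) or no time term (106); 2 passed with a prior variance with trend (172), 3 with cyclic loess (334) or median centring (293) and 4 with array weights (682). Leaving out 1 array gave 0 to 3 of the genes and 0 to 288 over all. Against untreated, array weights called FOSL1 (1 gene, lower) in the combination, and the counts over all genes moved as follows. For erlotinib they were 1 with no filter and 2 with all rows. For quinacrine they were 6 with cyclic loess or median centring, 494 with array weights, 0 with only the treated group and untreated, and 9 without combination 6 h and erlotinib 12 h, with 0 to 5 over single arrays left out. For the combination they were 5 with a mean of at least 4, with cyclic loess or without those 2 arrays, 1 with all rows, 6 with median centring, 809 with array weights and 0 with only the treated group and untreated, with 0 to 5 over single arrays left out.

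For the time trend, ETV5 passed with a mean of at least 4 (1 gene), and DUSP5 and SPHK1 without erlotinib 6 h (0 to 2 over single arrays left out). The counts over all genes were 28 with no filter, 4 with all rows, 214 with a prior variance with trend, 231 with median centring, 0 with the 6, 12 and 24 h arrays only, 50 with time in hours, 38 without the 2 arrays and 14 to 863 over single arrays left out. For the slope difference, a prior variance with trend called IER3 (1 gene of 16), and single arrays left out gave 0 to 24 over all genes.

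Signs turned only in values that did not pass. Combination minus quinacrine became -0.11 for IER3 with the mean of its rows, and -0.01 for DUSP5, -0.03 for EGR1, -0.04 for SPHK1 and -0.01 for FOSL1 with the 6, 12 and 24 h arrays or with only the compared groups; over single arrays left out, DUSP5 ran from -0.08 to 0.18, EGR1 from -0.03 to 0.20, SPHK1 from -0.04 to 0.35 and FOSL1 from -0.01 to 0.28. Quinacrine minus untreated became -0.15 for SPRY4 and -0.05 for IER3 with array weights, with SPRY4 from -0.09 to 0.44 over single arrays left out, and combination minus untreated became -0.05 for SPRY4 without 48 h, with -0.05 to 0.28 over single arrays left out. Erlotinib minus untreated ran from -0.32 to 0.01 for DUSP5. The time trend became -0.04 for IER3 with median centring, 0.06 for EGR1 with array weights, and -0.17 for SPRY4 without 48 h; over single arrays left out EGR1 ran from -0.09 to 0.06 and IER3 from -0.09 to 0.15, and IER3 was -0.06 without combination 6 h and erlotinib 12 h. With time in hours the EGR1 slope is per hour, another unit, and rounds to 0.00. The slope difference became -0.23 for FOSL1 without 48 h, and over single arrays left out ran from -0.20 to 0.32 for DUSP5, -0.41 to 0.58 for SPRY4 and -0.13 to 0.35 for FOSL1.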

Other observations

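The slope difference between combination and erlotinib, per doubling of time, had a median of 0.29 over 12 other immediate early genes and of 0.33 over 9 other ERK output genes. It was 0.24 for the 6 tested genes described above and 0.07 for all tested genes. The other pathway lists did not exceed that 0.07. Their medians were 0.07 for the other ERK phosphatase and feedback genes and 0.06 for serum response factor, ETS factors and their partners. For the stress kinase phosphatases the median was 0.03, for ligands and receptors 0.00 and for the RAS to ERK cascade -0.02. No gene passed that test in limma after adjustment (770 at an unadjusted p under 0.05), and the lists were described without a test. The early end of these slopes includes the combination array at 6 h that stood apart, and its part in the medians was not tested.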
